A study of Mus musculus with 9 samples.

Results

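The genes described here mark the transmitter that a neuron other than a dopamine neuron makes, takes up or packs into vesicles. They were listed by name, though with earlier results of these data known, and they are 10 of the 55450 genes counted in each library. Gad1, Gad2 and Slc32a1 stand for GABA neurons, Slc17a6, Slc17a7 and Slc17a8 for glutamate neurons, Slc6a5 for glycine neurons, Tph2 for serotonin neurons, and Chat and Slc5a7 for cholinergic neurons. Each symbol matched a single gene of the GENCODE M21 annotation on the mouse genome GRCm38, and all 10 passed the filter on low counts.

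A fast transmitter is defined by few proteins. An enzyme makes the molecule, or a transporter of the plasma membrane brings it in, and a vesicular transporter loads it for release. The substantia nigra holds dopamine neurons in the pars compacta and GABA projection neurons in the pars reticulata, and glutamate neurons are found within it and in neighbouring midbrain nuclei. Serotonin neurons lie in the raphe, and large groups of cholinergic and glycine neurons lie in the brainstem, so that transcripts of their genes report on neurons in or near the dissected block.

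RNA of nigral tissue dissected by hand was sequenced in 9 libraries from male mice on a C57BL6 background, 3 from each of the groups CTR, CX3 and DAT, 5 weeks after lentiviral vectors were injected on both sides. CTR mice carried the CX3CR1-CreERT2 allele and received a Cre-inducible vector for GFP, which the study describes as a destabilized form. CX3 mice carried the same allele and received a Cre-inducible Synuclein-expressing vector, and DAT mice carried DAT-Cre and received that Synuclein vector. Cx3cr1 drives Cre in microglia and other myeloid cells, and the dopamine transporter locus drives it in dopamine neurons. Tamoxifen, at 75 mg/kg for 4 days after surgery, is described for the CX3CR1-CreERT2 mice, and whether DAT-Cre mice received it is not stated. All groups underwent surgery and carried a vector, and by this description CX3 differed from CTR in the vector alone. DAT differed from CTR in the Cre line and the vector, and possibly in tamoxifen, and the effects of these cannot be told apart. The number of animals behind each library is not given, and p-values therefore measure the spread between libraries, which may be technical.

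Reads counted on genes ranged from 21592817 in DAT library B to 39475428 in DAT library A. Levels are given as CPM, the share of a library's counts scaled by TMM, a factor per library that sets most genes as unchanged, and a floor of 3 counts corresponded to 0.0760 to 0.139 CPM before that scaling. The squared difference between libraries of a group was 1.51 to 1.94 times that of random sampling in CTR and 2.87 to 7.72 times in CX3. In DAT it was 2.46 times between libraries A and C but 20.5 times between A and B and 14.9 times between B and C, so that DAT library B stood apart, and values without it are given wherever they change a call of the 10 genes or a count over a gene list with TMM scaling. The counted genes include no vector sequence, and the labels could not be checked by the transgene. Cx3cr1 had 102, 44.6 and 83.4 CPM on average in CTR, CX3 and DAT, and the dopamine transporter gene Slc6a3 had 130.0, 195 and 91.1. The summed level of 7 microglial genes was 989 to 1014 CPM in the libraries labelled CTR, 660 to 684 in CX3 and 507 to 550 in DAT. That of 7 T cell genes was 57.7 to 58.4, 45.9 to 49.5 and 14.9 to 16.7, and that of 6 B lineage genes was 304 to 323, 73.2 to 78.0 and 10.7 to 14.1, so that these immune lists were highest in the libraries labelled CTR.

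The scale matters for neuronal genes in these libraries. A list of 18 genes common to all neurons summed to 7706 to 7737 CPM in CTR, 8034 to 8084 in CX3 and 11950 to 12451 in DAT. Of these 18 genes, 17 rose and none fell in DAT against CTR with TMM scaling (18 and none without DAT library B). A second scale therefore sets the sum of this list equal in every library, and on it the median log2 change of all genes was -0.66 in DAT against CTR and 0.60 in CX3 against DAT, against -0.0038 and 0.010 with TMM. On that scale 6.63% of the genes called in DAT against CTR were higher, against 53.4% with TMM, and 29.8% against 45.9% in CX3 against CTR. Of those called in CX3 against DAT, 90.6% were higher on that scale and 46.8% with TMM. With library size alone the same shares were 37.8%, 58.9% and 66.7%. Fewer cells of a type and less RNA per cell cannot be told apart in tissue of this kind.

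Levels of different genes were compared per exon length, as TPM (transcripts scaled to a common sum per library, mean ± SD, n = 3 libraries). In CTR the highest was Slc17a6 with 179 ± 1.28 TPM, followed by Gad2 with 130 ± 3.75, Gad1 with 121 ± 1.09, Slc32a1 with 90.5 ± 2.85, Slc17a7 with 22.1 ± 0.858 and Tph2 with 10.4 ± 0.0968. Below them were Slc5a7 with 3.10 ± 0.0997, Slc6a5 with 1.75 ± 0.0397, Slc17a8 with 1.18 ± 0.0749 and Chat with 0.949 ± 0.0745 TPM, and no neighbours in this order overlapped. CX3 kept the first 6 places in the same order, while Slc17a8, Slc5a7 and Slc6a5, at 3.08 ± 0.254, 3.03 ± 0.296 and 3.00 ± 0.165 TPM, overlapped one another. In DAT the GABA genes came first, with Gad1 at 221 ± 13.2, Gad2 at 215 ± 30.6 and Slc32a1 at 200.2 ± 11.4 TPM, which overlapped, and Slc17a6 followed at 169 ± 8.55. Tph2, Slc6a5, Slc5a7 and Chat were thus below the 3 GABA genes, Slc17a6 and Slc17a7 in every group, whereas Slc17a8 was below Tph2 in every group. The order above is from unstranded counts. With reverse-strand counts Slc32a1 had 106 TPM in CTR against 103 for Gad1. In DAT it had 239.5 TPM with those counts, against 185 for Gad1 and 179 for Gad2.

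**Figure D1:**
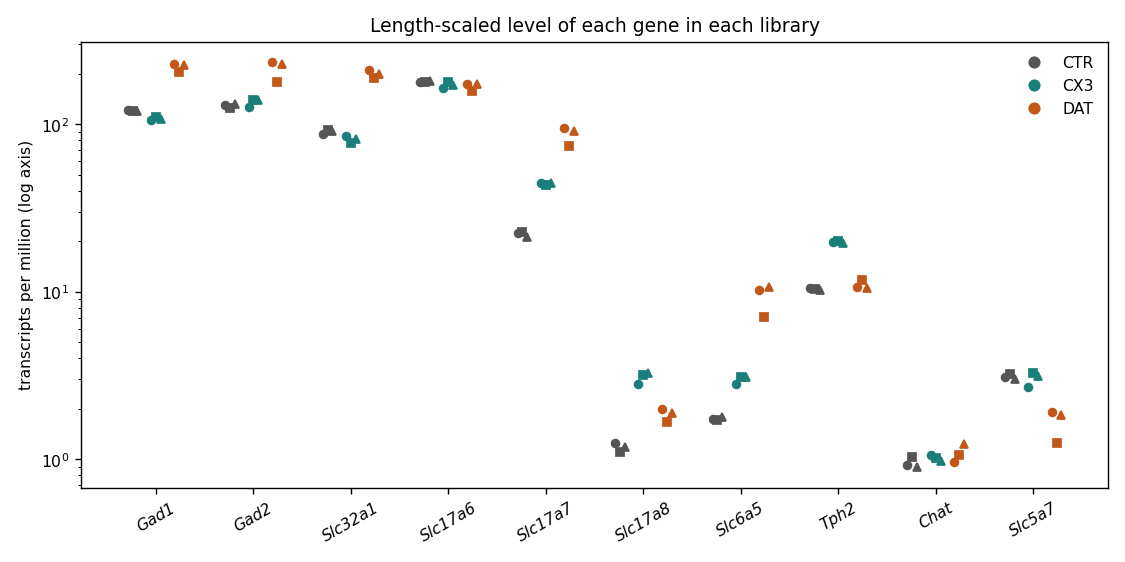
Level of each of the 10 genes per exon length, in TPM on a log axis, with 1 point per library (circle A, square B, triangle C) coloured by group. Slc17a6 stood first in CTR and CX3 at 164 to 181 TPM, whereas the 3 GABA genes stood above it in DAT at 180 to 235 TPM.

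Differences between groups were tested with edgeR's quasi-likelihood test over the 20892 genes that passed the filter, with Benjamini-Hochberg adjustment, and a gene was called at an adjusted p under 0.05. In CX3 against CTR 7 of the 10 genes were called, where 30.5% of all genes were. Slc17a7, Slc17a8, Slc6a5 and Tph2 were the 4 higher ones (14.0% of all genes) and Gad1, Slc32a1 and Slc17a6 the 3 lower ones (16.5% of all genes). In DAT against CTR 8 of 10 were called (59.9% of all genes). They were 7 higher genes (32.0% of all genes), namely Gad1, Gad2, Slc32a1, Slc17a7, Slc17a8, Slc6a5 and Tph2, and 1 lower gene (27.9% of all genes), Slc5a7. Without DAT library B 7 were called, Tph2 being lost (31.5% of all genes were higher and 30.2% lower). CX3 against DAT gave 9 of 10 calls (58.9% of all genes), 3 higher (27.6% of all genes), Slc17a8, Tph2 and Slc5a7, and 6 lower (31.3% of all genes), Gad1, Gad2, Slc32a1, Slc17a6, Slc17a7 and Slc6a5. Both comparisons with CTR share its 3 libraries. A test against a 1.5-fold change called 3 of the 10 genes in CX3 against CTR, all higher (0.828% of all genes). It called 5 in DAT against CTR, all higher (7.33% of all genes), and 5 in CX3 against DAT, all lower (8.17% of all genes).

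**Figure D2:**
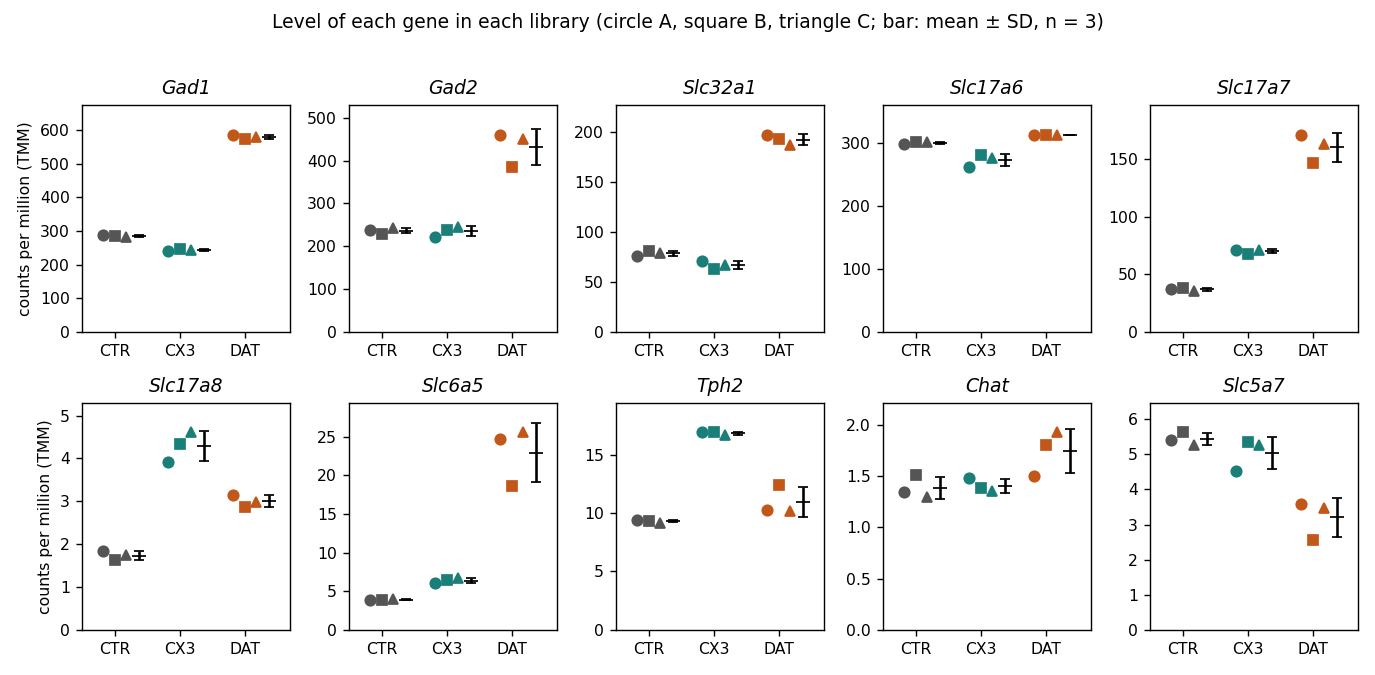
Level of each gene in CPM (TMM scaling, axes from 0) in each library, with the mean ± SD of 3 libraries beside each group. The DAT libraries lay apart from the others for Gad1, Gad2, Slc32a1, Slc17a7 and Slc6a5, with Gad1 at 573 to 586 CPM, and the CX3 libraries lay highest for Slc17a8 and Tph2, with Tph2 at 16.7 to 16.9 CPM.

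The GABA genes were highest in DAT, and Gad1 and Slc32a1 were slightly lower in CX3 than in CTR. Gad1 and Gad2 encode the glutamate decarboxylases that make GABA, and Slc32a1 encodes the vesicular transporter that GABA and glycine share. The genes lie apart on chromosome 2, Gad1 (ENSMUSG00000070880.10) at chr2:70553072-70602014, Gad2 (ENSMUSG00000026787.3) at chr2:22622205-22693874 and Slc32a1 (ENSMUSG00000037771.11) at chr2:158610767-158615748, all on the plus strand.

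Gad1 stood at 289, 286 and 283 CPM in CTR libraries A, B and C, at 240.1, 245 and 245 in CX3, and at 586, 573 and 579 in DAT. The groups did not overlap, with CX3 lowest and DAT highest. Gad1 was 0.23 ± 0.036 (SE) lower on the log2 scale in CX3 than in CTR, a log2 change of -0.23 (adjusted p = 0.000250), and 1.02 ± 0.036 higher in DAT (adjusted p = 2.81e-11). The difference of CX3 from DAT was -1.25 ± 0.036 (adjusted p = 4.23e-12).

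Gad2 stood at 239, 229 and 242 CPM in CTR, at 222, 239 and 244 in CX3, and at 461, 385 and 451 in DAT. CTR and CX3 overlapped, all DAT libraries were higher, and DAT library B was the lowest of these. The log2 change in CX3 against CTR was -0.010 with a 95% interval from -0.14 to 0.12 (adjusted p = 0.923), and its sign changed with the scaling and the filter. In DAT against CTR Gad2 rose by 0.87 ± 0.062 (adjusted p = 3.26e-08), and in CX3 against DAT it was lower by a log2 change of -0.88 ± 0.062 (adjusted p = 2.88e-08).

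Slc32a1 stood at 75.9, 80.8 and 78.98 CPM in CTR, at 70.9, 62.6 and 67.3 in CX3, and at 197, 192 and 187 in DAT. The 3 groups were again separate, in the order of Gad1. The log2 change was -0.23 ± 0.052 in CX3 against CTR (adjusted p = 0.00409), 1.29 ± 0.052 in DAT against CTR (adjusted p = 9.16e-11) and -1.52 ± 0.052 in CX3 against DAT (adjusted p = 2.20e-11). The decreases of Gad1 and Slc32a1 in CX3 against CTR were not called by a test against a 1.2-fold change. Gm14205, an antisense gene that shares 24.9% of the exon bases of Slc32a1, had at most 1 count per library. In unstranded counts a read on 2 genes is ambiguous and counted for neither, so this count does not show the effect of the overlap. With reverse-strand counts Slc32a1 had 106 TPM in CTR, 91.2 in CX3 and 239.5 in DAT, against 90.5, 81.2 and 200.2 with unstranded counts.

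On the pan-neuronal scale the 3 genes were still called higher in DAT than in CTR (5.35% of all genes). The log2 changes were 0.36 for Gad1, 0.21 for Gad2 and 0.64 for Slc32a1. All 3 were called lower there in CX3 than in DAT (7.40% of all genes). Of the 18 pan-neuronal genes themselves, 6 were called higher and 8 lower in DAT against CTR on this scale. Their log2 changes ran from -0.56 for Map2 to 0.87 for Dnm1, a range that holds those of the 3 GABA genes. The TPM ratio of Gad1 to Slc17a6, which no scaling of libraries changes, was 0.672 ± 0.0109 in CTR, 0.631 ± 0.0151 in CX3 and 1.31 ± 0.0137 in DAT (SD, n = 3). The ratio of Gad1 to Slc32a1 was 1.33 ± 0.0530, 1.34 ± 0.0964 and 1.10 ± 0.0257 with unstranded counts. It depended on the counting, since with reverse-strand counts the mean TPM of Slc32a1 lay above that of Gad1 in CTR and DAT. The ratio of Gad1 to Gad2 was 0.929 ± 0.0288, 0.797 ± 0.0306 and 1.04 ± 0.0937. The GABA genes therefore rose together in DAT relative to Slc17a6, with a somewhat larger rise of Slc32a1 than of the decarboxylases.

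The promoters of these 3 genes, all called higher in DAT than in CTR, are shown as a description. Each runs from 250 bases before to 50 bases after the start in the RefSeq table for GRCm38.p6, 5′ to 3′ on the plus strand. Capitals mark matches, on either strand, to GGGCGG (bound by Sp1 factors), TATAAA (bound by the basal factor TFIID), CCAAT (bound by NF-Y), TGACG (bound by CREB factors) or CAGCTG (bound by some bHLH factors). The windows are chr2:70561879-70562178 for Gad1, chr2:22622077-22622376 for Gad2 and chr2:158610508-158610807 for Slc32a1.
Gad1: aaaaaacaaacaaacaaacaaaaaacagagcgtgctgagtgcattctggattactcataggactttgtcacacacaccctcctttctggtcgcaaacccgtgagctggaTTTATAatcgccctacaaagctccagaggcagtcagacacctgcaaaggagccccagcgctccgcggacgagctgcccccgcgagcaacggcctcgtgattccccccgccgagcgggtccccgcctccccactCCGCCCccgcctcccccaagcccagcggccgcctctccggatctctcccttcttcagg
Gad2: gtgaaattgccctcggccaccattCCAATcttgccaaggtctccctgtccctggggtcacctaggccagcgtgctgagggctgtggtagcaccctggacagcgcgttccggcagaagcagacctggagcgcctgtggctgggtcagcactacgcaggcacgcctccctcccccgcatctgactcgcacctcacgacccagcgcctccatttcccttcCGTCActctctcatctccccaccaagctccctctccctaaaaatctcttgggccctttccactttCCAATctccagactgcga
Slc32a1: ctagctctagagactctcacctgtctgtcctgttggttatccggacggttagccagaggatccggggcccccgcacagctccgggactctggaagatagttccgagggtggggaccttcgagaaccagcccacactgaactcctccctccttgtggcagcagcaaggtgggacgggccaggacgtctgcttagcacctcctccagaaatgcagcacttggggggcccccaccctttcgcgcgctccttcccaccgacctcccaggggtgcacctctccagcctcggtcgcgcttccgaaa
The RefSeq start of Gad1 lies inside the GENCODE gene, downstream of its first base. Gad1 held 1 TATAAA and 1 GGGCGG match, Gad2 held 2 CCAAT and 1 TGACG match, and Slc32a1 held none of the 5 motifs, so that no motif was shared by the 3 windows. Among all 32851 promoters of this length in the table, 13.6% held TATAAA, 35.7% GGGCGG, 37.4% CCAAT, 20.8% TGACG and 16.3% CAGCTG. No motif matches overlapped in these windows. The GC content was 60.0%, 61.3% and 63.3% in Gad1, Gad2 and Slc32a1, above the median of 52.7% of all promoters. The 10 genes had 13 promoters in the table, of which that of Slc17a7 held the most GGGCGG matches, with 3.

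Of the other genes of the GABA pathway, 4 were tested. All 4 rose in DAT against CTR, none rose and 3 fell in CX3 against CTR, and all 4 were lower in CX3 than in DAT. Their median log2 changes in DAT against CTR, CX3 against CTR and CX3 against DAT were 0.61, -0.18 and -0.71, where the median of all genes was -0.0038, -0.0033 and 0.010. Slc6a11, a GABA transporter prominent in astrocytes, rose from 635 CPM in CTR to 967 in DAT, and Slc6a13, another GABA transporter, from 31.1 to 54.8. Aldh5a1, which oxidises the product of GABA breakdown, rose from 75.2 to 116 CPM. Abat, the transaminase that degrades GABA, rose by 0.25 on the log2 scale in DAT (adjusted p = 0.00199) and fell by 0.31 in CX3 against CTR (adjusted p = 0.00106). With pan-neuronal scaling 1 of the 4, Slc6a13, rose and 1, Abat, fell in DAT against CTR (log2 change of Abat -0.40, adjusted p = 5.53e-05), and Slc6a11 and Aldh5a1 had -0.048 and -0.035 without a call.

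The vesicular glutamate transporter genes went separate ways. Slc17a6 (ENSMUSG00000030500.6, chr7:51622006-51671119, plus strand) encodes VGLUT2, the transporter of most subcortical glutamate neurons. Slc17a7 (ENSMUSG00000070570.5, chr7:45163949-45176142, plus strand) encodes VGLUT1, typical of neurons of the cortex, hippocampus and cerebellar granule layer. Slc17a8 (ENSMUSG00000019935.16, chr10:89574020-89621253, minus strand) encodes VGLUT3, found in sparse neurons that often release another transmitter as well.

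Slc17a6 stood at 298, 301 and 302 CPM in CTR, at 262, 280.1 and 276 in CX3, and at 313, 312 and 312 in DAT. The range across all libraries was narrow, with CX3 lowest and DAT highest. In CX3 against CTR the log2 change was -0.14 ± 0.039 (adjusted p = 0.0148), a call lost without CTR library B, CTR library C or CX3 library A (adjusted p from 0.0557 to 0.0616) with library-size scaling (adjusted p = 0.0716) and with all genes of at least 1 count (adjusted p = 0.228). In DAT against CTR it was 0.058 with a 95% interval from -0.026 to 0.14 (adjusted p = 0.217), and on the pan-neuronal scale it was -0.60 (adjusted p = 1.03e-08). In CX3 against DAT it was -0.20 ± 0.039 (adjusted p = 0.000572) with TMM and 0.40 on the pan-neuronal scale (adjusted p = 7.46e-07), so that the direction depended on the scaling. The call with TMM was lost with library-size scaling (adjusted p = 0.939), with forward-strand counts (adjusted p = 0.0613) and in a test against a 1.2-fold change (adjusted p = 0.986).

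Slc17a7 stood at 37.3, 38.3 and 35.4 CPM in CTR, at 71.3, 67.9 and 71.5 in CX3, and at 171, 147 and 163 in DAT. The groups were far apart in the order CTR, CX3, DAT. The log2 change was 0.92 ± 0.060 in CX3 against CTR (adjusted p = 6.71e-08), 2.12 ± 0.061 in DAT against CTR (adjusted p = 3.30e-12) and -1.19 ± 0.058 in CX3 against DAT (adjusted p = 6.36e-10). Pan-neuronal scaling gave 0.86, 1.46 and -0.60, each called.

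Slc17a8 stood at 1.84, 1.62 and 1.73 CPM in CTR, at 3.92, 4.33 and 4.61 in CX3, and at 3.15, 2.87 and 2.98 in DAT, from 52 to 177 counts per library. CX3 was the highest group and CTR the lowest, without overlap. The log2 change was 1.31 ± 0.13 in CX3 against CTR (adjusted p = 3.85e-06), 0.80 ± 0.14 in DAT against CTR (adjusted p = 0.000183) and 0.51 ± 0.12 in CX3 against DAT (adjusted p = 0.00254). The rise in DAT against CTR was 0.15 on the pan-neuronal scale and was not called there (adjusted p = 0.332), and the call in CX3 against DAT was lost with reverse-strand counts (adjusted p = 0.0503).

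As shares of the summed TPM of the 3 transporter genes, Slc17a6 made up 88.5% ± 0.416 in CTR, 78.4% ± 0.911 in CX3 and 65.6% ± 1.75 in DAT (SD, n = 3). Slc17a7 made up 10.9% ± 0.424, 20.2% ± 0.943 and 33.7% ± 1.74, and Slc17a8 made up 0.583% ± 0.0395, 1.41% ± 0.0828 and 0.720% ± 0.0160. The share of each of the 3 genes did not overlap between any of the groups. The shares add up to the whole in each library, so those of Slc17a6 and Slc17a7 are not separate results.

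Among the other glutamate pathway genes 11 were tested. Of these, 7 rose and none fell in DAT against CTR (8 and 1 without DAT library B), none rose and 6 fell in CX3 against CTR, and all 11 were lower in CX3 than in DAT, with median log2 changes of 0.35, -0.27 and -0.40. Glud1, glutamate dehydrogenase, rose from 389 CPM in CTR to 521 in DAT. The astrocyte genes Slc1a3, a glutamate transporter, and Glul, glutamine synthetase, fell in CX3 against CTR by 0.63 (adjusted p = 1.18e-07) and 0.41 (adjusted p = 2.37e-07) on the log2 scale, and Slc1a2, the other main astrocyte transporter, fell by 0.28 (adjusted p = 0.00375). In DAT against CTR with TMM scaling, Slc1a3, Glul and Slc1a2 were not called, with log2 changes of -0.038, -0.055 and -0.11. Beside this, 7 astrocyte marker genes, Slc1a3 among them, summed to 4715 to 4768 CPM in CTR, 2769 to 2867 in CX3 and 2867 to 2895 in DAT. The largest part was Gfap, with 2369, 1181 and 1065 CPM. The part of the astrocyte genes in the falls in CX3 was not tested. With pan-neuronal scaling 9 of the 11 fell and none rose in DAT against CTR, Glud1 among them with a log2 change of -0.23 (adjusted p = 3.37e-05), and in CX3 against DAT 7 rose and 2 fell.

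Slc6a5 (ENSMUSG00000039728.15, chr7:49910146-49963856, plus strand) encodes GLYT2, the glycine transporter of glycine neurons, and showed the largest fold change of the 10 genes in DAT. It stood at 3.88, 3.85 and 4.001 CPM in CTR, at 5.998, 6.44 and 6.64 in CX3, and at 24.7, 18.6 and 25.6 in DAT. The groups were separate in the order CTR, CX3, DAT, and DAT library B was the lowest of its group. The log2 change was 0.70 ± 0.13 in CX3 against CTR (adjusted p = 0.000941), 2.56 ± 0.12 in DAT against CTR (adjusted p = 3.08e-10) and -1.86 ± 0.11 in CX3 against DAT (adjusted p = 3.21e-09). Pan-neuronal scaling gave 0.64, 1.91 and -1.27, each called. The TPM ratio of Slc32a1 to Slc6a5 was 51.8 ± 2.02 in CTR, 27.2 ± 2.85 in CX3 and 22.0 ± 4.09 in DAT (SD, n = 3), and the last 2 overlapped.

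The other 9 genes of the glycine pathway were all tested. In DAT against CTR 6 rose and 1 fell, in CX3 against CTR none rose and 2 fell (4 without DAT library B), and in CX3 against DAT 1 was higher and 7 lower, with median log2 changes of 0.24, -0.096 and -0.31. Slc6a9, the glycine transporter found mainly on astrocytes, rose from 61.4 CPM in CTR to 93.9 in DAT. Glrb, the beta subunit of the glycine receptor, rose by 0.24 on the log2 scale in DAT (adjusted p = 6.15e-05). Gphn, which encodes the receptor anchor gephyrin, had 77.9 and 78.0 CPM in CTR and DAT (adjusted p = 0.946) and fell by 0.31 in CX3 against CTR (adjusted p = 0.000167). Glra1, the adult alpha subunit of the receptor in brainstem and spinal cord, was singled out after its values were seen, since it had 7.95 CPM in CTR, 7.46 in CX3 and 26.1 in DAT, a log2 change of 1.71 in DAT against CTR (adjusted p = 1.31e-09). On the pan-neuronal scale 1 of the 9 rose and 7 fell in DAT against CTR, and in CX3 against DAT 6 rose and 1 fell. The log2 change of Glrb in DAT against CTR turned to -0.42 there (adjusted p = 1.35e-07) and that of Slc6a9 to -0.039, which was not called.

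Tph2 (ENSMUSG00000006764.8, chr10:115078641-115185022, minus strand) encodes the tryptophan hydroxylase of serotonin neurons, the first step of serotonin synthesis, and was highest in CX3. It stood at 9.36, 9.31 and 9.17 CPM in CTR, at 16.9, 16.9 and 16.7 in CX3, and at 10.3, 12.4 and 10.1 in DAT. CX3 lay above every other library, and DAT lay slightly above CTR with library B highest. In CX3 against CTR the log2 change was 0.86 ± 0.075 (adjusted p = 1.27e-06) and in CX3 against DAT 0.63 ± 0.076 (adjusted p = 5.75e-06). In DAT against CTR it was 0.22 ± 0.081 (adjusted p = 0.0293) with TMM and -0.43 on the pan-neuronal scale (adjusted p = 0.000132), so that the direction depended on the scaling. The call with TMM was also lost without DAT library B (0.13, adjusted p = 0.154), without any single CTR library (adjusted p from 0.0838 to 0.102), without CX3 library A or C (adjusted p = 0.0548 and 0.0603), with DESeq2 (adjusted p = 0.0738), with library-size scaling (adjusted p = 0.429), with all genes of at least 1 count (adjusted p = 0.0577), with genes of at least 10 counts in every library (adjusted p = 0.111), with only the groups compared (adjusted p = 0.0972), in a test against a 1.2-fold change (adjusted p = 0.624), and with counts of the reverse strand (adjusted p = 0.646) or forward strand (adjusted p = 0.102).

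Of the other 10 serotonin pathway genes, 4 rose and 2 fell in CX3 against CTR, 2 rose and 3 fell in DAT against CTR (2 and 4 without DAT library B), and 5 were higher and 1 lower in CX3 than in DAT (6 and 1 without it), with median log2 changes of 0.31, -0.051 and 0.30. Several of these serve dopamine neurons as well. Ddc, the decarboxylase of both pathways, rose by 0.59 in CX3 against CTR (adjusted p = 3.19e-07) and fell by 0.25 in DAT (adjusted p = 0.000283), and Slc18a2, the vesicular monoamine transporter, rose by 0.58 (adjusted p = 2.48e-07) and 0.12 (adjusted p = 0.0318). Qdpr, which regenerates the cofactor of the hydroxylases, fell by 0.21 in DAT against CTR (adjusted p = 0.0388), and for Maoa, a monoamine oxidase, neither change from CTR was called, at 0.050 and -0.10. Slc6a4, the serotonin transporter of serotonin neurons, was singled out after its values were seen, with 4.10, 7.39 and 6.20 CPM in CTR, CX3 and DAT and log2 changes of 0.85 and 0.60 against CTR (adjusted p = 6.25e-06 and 6.98e-05). Fev, a transcription factor of serotonin neurons, had 4 to 32 counts per library and was not called. Scaled to the pan-neuronal genes none of the 10 rose and 7 fell in DAT against CTR, where Slc18a2 turned to -0.54 (adjusted p = 7.61e-08) and Slc6a4 to -0.058, which was not called. The dopamine list, 12 genes of which Ddc and Slc18a2 are 2, summed to 892 to 900.05 CPM in CTR, 1093 to 1110 in CX3 and 719 to 728 in DAT.

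The cholinergic genes were low throughout. Chat (ENSMUSG00000021919.8, chr14:32408203-32465989, minus strand) encodes the enzyme that makes acetylcholine, and Slc5a7 (ENSMUSG00000023945.7, chr17:54273590-54299034, minus strand) encodes the high-affinity choline transporter. Chat had 36 to 57 counts per library, which gave 1.35, 1.51 and 1.30 CPM in CTR, 1.48, 1.39 and 1.35 in CX3, and 1.51, 1.81 and 1.93 in DAT. CTR overlapped both other groups, and CX3 lay just below DAT. No comparison called Chat. The 95% intervals of the log2 change ran from -0.35 to 0.38 in CX3 against CTR, from -0.066 to 0.68 in DAT against CTR and from -0.66 to 0.075 in CX3 against DAT. Changes within these bounds were not excluded. On the pan-neuronal scale the signs of all 3 turned, again without a call.

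Slc5a7 stood at 5.42, 5.63 and 5.27 CPM in CTR, at 4.52, 5.34 and 5.26 in CX3, and at 3.59, 2.57 and 3.47 in DAT. CTR and CX3 overlapped, and all DAT libraries were lower, library B most. The log2 change was -0.11 with a 95% interval from -0.36 to 0.14 in CX3 against CTR (adjusted p = 0.508), -0.74 ± 0.13 in DAT against CTR (adjusted p = 0.000226) and 0.62 ± 0.13 in CX3 against DAT (adjusted p = 0.000859). It was the only one of the 10 genes that was called lower in DAT with TMM, and on the pan-neuronal scale the change was -1.39. The TPM ratio of Slc5a7 to Chat was 3.28 ± 0.150 in CTR, 3.00 ± 0.393 in CX3 and 1.55 ± 0.405 in DAT (SD, n = 3).

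**Figure D3:**
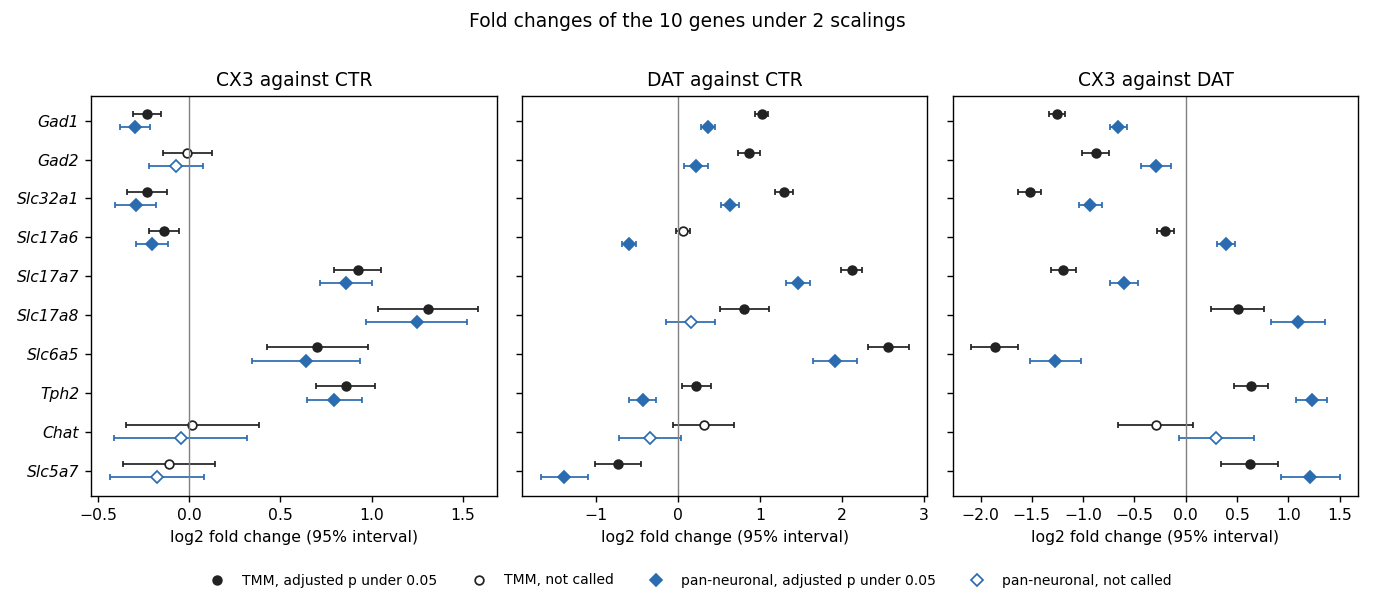
Log2 fold change of each gene in the 3 comparisons with its 95% interval, under TMM (circles) and pan-neuronal scaling (diamonds), filled where the adjusted p was under 0.05. Slc17a6 and Tph2 in DAT against CTR turn from 0.058 and 0.22 to -0.60 and -0.43, whereas Slc17a7 and Slc6a5 lie to the right of 0 under both in that comparison.

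The other 6 genes of the acetylcholine pathway all rose in DAT against CTR, 3 rose and 1 fell in CX3 against CTR, and none was higher and 5 were lower in CX3 than in DAT (4 lower without DAT library B), with median log2 changes of 0.82, 0.27 and -0.56. Ache, acetylcholinesterase, rose from 96.2 CPM in CTR to 199 in DAT and stood at 91.8 in CX3. Slc44a1, a choline transporter of many cell types, had 183, 152 and 199 CPM in CTR, CX3 and DAT. Bche, butyrylcholinesterase, rose by 0.36 in CX3 and 0.34 in DAT against CTR (adjusted p = 0.00219 and 0.00170), and Prima1, the membrane anchor of acetylcholinesterase, by 0.56 and 0.73 (adjusted p = 5.40e-05 and 1.10e-06). Slc18a3, the vesicular acetylcholine transporter gene nested within Chat, had 12 to 45 counts per library. With TMM these genes rose while Slc5a7 fell in DAT. Scaled to the pan-neuronal genes 2 of the 6 rose and 2, Bche and Slc44a1, fell in DAT against CTR (log2 changes -0.31 and -0.53, adjusted p = 0.00200 and 6.05e-07), and in CX3 against DAT 3 rose and 2 fell.

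Marker genes of neurons from different regions differed between the groups in the same libraries. Of 8 lineage factors of midbrain and hindbrain GABA neurons, 6 rose and none fell in DAT against CTR, and the list summed to 54.7 to 58.6 CPM in CTR, 50.8 to 54.3 in CX3 and 92.5 to 97.3 in DAT. Tal1 had 16.1, 15.4 and 22.7 CPM, Gata3 10.5, 9.43 and 16.8, Lhx1 8.90, 7.39 and 19.6 and Gata2 8.10, 9.73 and 15.5 in CTR, CX3 and DAT. All 5 lineage factors of forebrain GABA neurons rose in DAT and 2 in CX3, from a sum of 4.83 to 5.49 CPM in CTR to 7.79 to 8.07 in CX3 and 16.7 to 19.7 in DAT, with Dlx1 at 2.62, 3.88 and 8.36 CPM and Dlx6 at 0.830, 1.88 and 3.02. The forebrain list had 5 and 2 rises on the pan-neuronal scale too, and there 2 of the 8 midbrain and hindbrain factors rose and 1 fell in DAT. The GABA neuron subtype markers were mixed, with 3 of 7 higher and 1 lower in DAT against CTR and 2 higher and 1 lower in CX3. Calb2, calretinin, fell by 0.40 in CX3 against CTR (adjusted p = 0.000391), and Pvalb, parvalbumin, rose by 0.49 in CX3 and 0.43 in DAT (adjusted p = 0.00114 and 0.00110). On the pan-neuronal scale 1 of these 7 was higher and 5 were lower in DAT, among them Pvalb with a log2 change of -0.23 (adjusted p = 0.0256) and Calb2 with -0.50 (adjusted p = 3.32e-06).

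The genes of glutamate neurons of the cortex and hippocampus were tested for 7 of 8, of which 6 rose and none fell in DAT against CTR and 1 rose and 1 fell in CX3. Without DAT library B all 8 were tested, of which 7 rose and none fell in DAT and 2 rose and 2 fell in CX3. Their sum was 329 to 339 CPM in CTR, 360.4 to 380 in CX3 and 480 to 537 in DAT, and most of it came from Camk2a and Nrgn, which are not confined to these regions. Emx1, a defining gene of the cortex, had 1 to 12 counts per library. In DAT against CTR Neurod2 rose from 2.46 to 12.2 CPM and Neurod6 from 2.82 to 4.49. Of 6 tested genes of cerebellar granule neurons, 5 rose and none fell in DAT and 3 rose and 1 fell in CX3 against CTR. Zic1, which made up most of the sum of this list, rose from 89.4 CPM in CTR to 126 in DAT, and Pax6 from 13.3 to 18.6. Fat2 rose from 0.569 CPM in CTR to 14.2 in DAT and Barhl1 from 2.69 to 9.08. Gabra6, which defines mature granule neurons, had 1 to 5 counts per library. On the pan-neuronal scale 3 of these 6 granule genes rose and 3 fell in DAT against CTR. Zic1 and Pax6 were among the falls, with log2 changes of -0.17 and -0.18. Of the cortical and hippocampal genes 1, Neurod2, rose there and none fell, and Neurod6 had 0.0037 without a call. Thalamic genes, 3 of 6 higher and 1 lower in DAT (2 and 2 without library B) and 2 higher and 2 lower in CX3 (3 and 2 without library B), summed to 384 to 395 CPM in CTR, 453 to 461 in CX3 and 442 to 476 in DAT. Striatal genes, with 1 of 5 higher in each comparison with CTR and 3 lower in CX3 (1 also lower in DAT without library B), summed to 83.1 to 85.1, 65.3 to 67.7 and 83.9 to 92.2 CPM. On the pan-neuronal scale none of the thalamic genes was higher and 6 were lower in DAT, with 1 higher and 3 lower in CX3, and none of the striatal genes was higher and 5 were lower in DAT, with 3 lower in CX3. The cortical and hippocampal list and the granule list, of regions that use VGLUT1, had higher sums in CX3 and DAT than in CTR. For the granule list the sums were 108 to 109 CPM in CTR, 124.5 to 127 in CX3 and 169 to 173 in DAT. The pan-neuronal sum was higher too, at 7706 to 7737 CPM in CTR, 8034 to 8084 in CX3 and 11950 to 12451 in DAT. The part of these regions in the rise of Slc17a7 was not tested.

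The Hox genes, which pattern the hindbrain and spinal cord and stay off further forward, were at 1.87 to 2.01 CPM in sum in CTR, 0.987 to 1.95 in CX3 and 10.9 to 13.4 in DAT. Of the 7 tested, 6 rose in DAT against CTR and 1, Hoxb2, fell, under both scalings (7 and 1 of 8 tested without DAT library B with TMM). Hoxb4 rose from 0.634 to 2.51 CPM, Hoxb5 from 0.158 to 2.74, Hoxa5 from 0.0842 to 2.38 and Hoxb3 from 0.321 to 1.69. All 7 were lower in CX3 than in DAT with TMM (7 of 8 tested without library B) and 6 of them on the pan-neuronal scale. Of 6 cranial motor neuron genes 3 were tested and rose in DAT, Prph from 4.20 to 10.01 CPM, Isl1 from 1.63 to 7.33 and Tbx20 from 0.299 to 1.07. Tbx20 had 4 counts in DAT library A and 33 in each of B and C, and 2 of the 3 genes were called without library B. Phox2a, which marks cranial motor neurons of several nuclei, had 0 to 1 counts in the DAT libraries and 4 to 11 in CTR. The large rise of Slc6a5 and Glra1 in DAT lay beside these Hox genes, and the part of hindbrain tissue in it was not tested.

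Other tissue near the block also differed. The choroid plexus list summed to 34.0 to 36.6 CPM in CTR, 1467 to 1577 in CX3 and 867 to 1038 in DAT, all 6 genes having risen in both comparisons with CTR, most of it from Ttr, transthyretin. The pituitary list summed to 61.1 to 63.8 CPM in CTR, 5.89 to 6.10 in CX3 and 18.3 to 23.5 in DAT, with growth hormone, Gh, at 34.7, 0.217 and 0.103 CPM. Endothelial genes summed to 271 to 272 CPM in CTR, 347 to 353 in CX3 and 343 to 350 in DAT, and oligodendrocyte genes to 20600 to 20693, 21726 to 22122 and 14979 to 15947. These lists differed between the groups beside the transmitter genes, and their part in the differences described above was not tested.

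**Figure D4:**
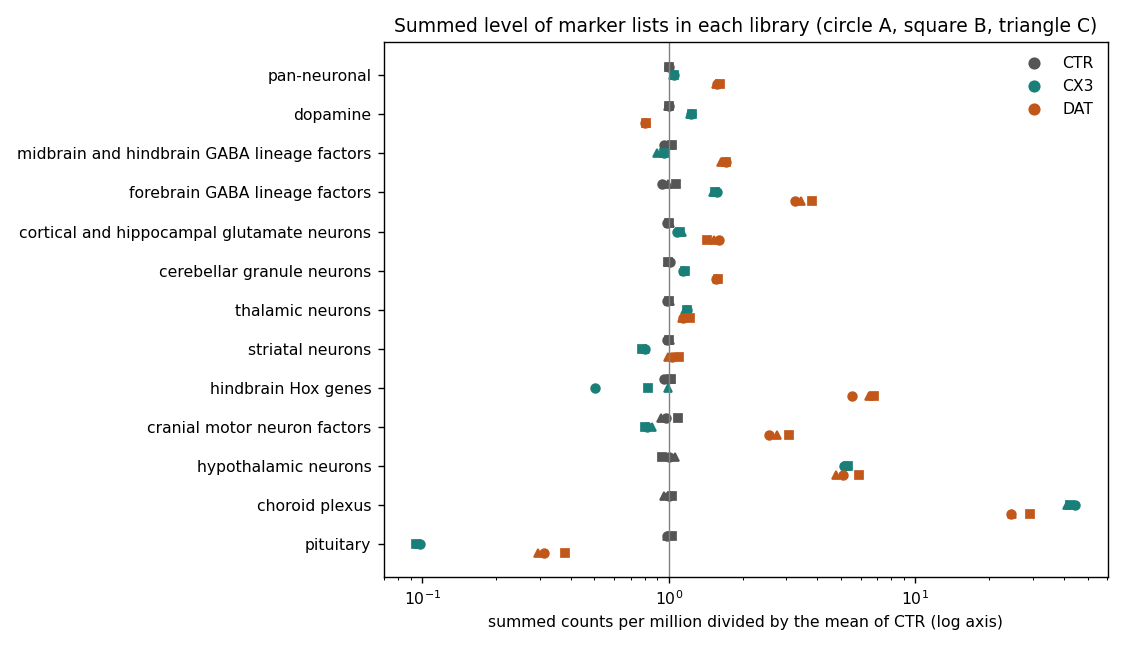
Summed CPM of marker lists in each library divided by the mean of the CTR libraries, on a log axis where 1 is that mean (circle A, square B, triangle C). The Hox genes and the forebrain GABA factors lie far to the right in DAT, the choroid plexus genes lie to the right in CX3 and DAT, and the pituitary genes lie to the left in both.

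Genes with the most similar pattern over the 9 libraries were sought among 12106 other protein-coding genes by the distance between centred log2 CPM values, as a description. For Gad1 they were Galnt16 at a distance of 0.0740 and Rusc1 at 0.0925, for Gad2 Armcx4 and Add2 at 0.104 and 0.105, and for Slc32a1 Adra2a at 0.162 and Clstn1 at 0.191. The nearest to Slc17a6 were Stam at 0.0607 and Retreg3 at 0.0832, and to Tph2 Rab37 at 0.232 and Egfl7 at 0.239. Chat was nearest to Bag5 at 0.204 and Bckdhb at 0.206, and Slc5a7 to Zbtb37 at 0.139 and Tmem67 at 0.155. Slc17a7, Slc17a8 and Slc6a5 had no neighbour as close, their nearest being Hspg2 at 0.425, Shank3 at 0.543 and Hspg2 at 0.681. Hspg2, which encodes the basement membrane protein perlecan, had 7.64 CPM in CTR, 12.02 in CX3 and 31.97 in DAT. Distances grow with the size of the differences between groups, and 9 libraries in 3 groups leave many genes with a like order.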

How the data were processed

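Total RNA of 9 nigral samples was made into libraries with a stranded mRNA kit and sequenced as 76-base reads. The authors deposited raw read counts, not normalized, after trimming with Trimmomatic and alignment with STAR to mm10, and featureCounts and DESeq2 are named in their processing notes. Versions are not given in the sources used here. The files are laid out as STAR writes gene counts, unstranded and by strand. Reverse-strand counts were 49.8% to 49.9% of the stranded total, so unstranded counts were used, and reads of antisense partners cannot be told apart. Reads on no gene made up 4.15% to 7.73%, and unmapped reads 13.8% to 22.0%.

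Samples were grouped by their labels. Counts were filtered with filterByExpr, scaled by TMM and fitted for all 9 libraries together with edgeR 4.0.16 (limma 3.58.1, R 4.3.3) by its quasi-likelihood test with Benjamini-Hochberg adjustment over all genes tested. The steps were tested on simulated data with the same spread for every gene and library. They were not tested with a library that stands apart, as DAT library B did. Alternatives were DESeq2 1.42.0, other scalings, filters, fold thresholds and strands, each library left out, and a replicate block. CPM used TMM library sizes, and TPM the counts over merged exon length. Tables and figures used Python 3.11.15, numpy 2.4.6 and pandas 2.3.3.

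The 10 genes and all gene lists were chosen with earlier results of these data known. All 10 genes are named. Other genes are the up to 4 with the highest mean CPM in each list, the 2 nearest in pattern to each gene (the nearest alone for 3 of them), genes said to be singled out, and defining or low markers of a list, also named after their values were seen. Some items of these lists are not reported here and were left out of their counts and sums. Promoter sequences are from RefSeq (GRCm38.p6), in which all 10 genes matched. The floor of 3 counts covers counting error only.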

Additional observations from a re-analysis of the deposited data

How the results depend on the processing

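Tests against a fold threshold (glmTreat) lowered the number of genes called. Against a 1.2-fold change, 4 of the 10 were called in CX3 against CTR and 0 of them were lower (3.16% of all genes were higher and 5.28% lower). Against 1.5-fold, 3 were called in CX3 against CTR with 0 lower, 5 in DAT against CTR with 0 lower, and 5 in CX3 against DAT with 0 higher. Of all genes 1.70%, 10.7% and 9.93% were called in these last directions. The counts of 0 were 0 at an unadjusted p under 0.05 as well, except 1 lower in DAT against CTR. DESeq2 without a fold threshold called 3 lower, 1 lower and 3 higher in these comparisons (12.4%, 18.4% and 19.5% of all genes). Scaling to pan-neuronal genes gave 3 lower genes in DAT against CTR, where 75.3% of all genes were called lower. It also gave 3 without DAT library B (73.6% of all genes), an alternative added after the data were seen. The cause of these shifts was not tested.

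Directions turned as follows. In CX3 against CTR, Gad2 had 0.036 with library size alone, 0.026 with all genes of at least 1 count, 0.012 with reverse-strand counts, and -0.037 to 0.029 with single libraries left out. Chat there had -0.046 with pan-neuronal scaling, -0.046 also without DAT library B, -0.27 with reverse-strand counts, and -0.029 to 0.086 with single libraries left out. In DAT against CTR, Slc17a6 had -0.089 with library size alone, -0.60 with pan-neuronal scaling (-0.58 without DAT library B), -0.017 with genes of at least 10 counts in every library, -0.0058 with reverse-strand and -0.044 with forward-strand counts. Tph2 had -0.43 with pan-neuronal scaling and -0.50 without DAT library B as well, and Chat -0.34 and -0.36. In CX3 against DAT, Slc17a6 had 0.40 and 0.38 and Chat 0.30 and 0.31 under the same scalings. Without DAT library B the calls were otherwise kept in 29 of 30 tests.

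The letters A, B and C pair no samples by label, and same-letter deviations correlated from -0.43 to 0.23. With a replicate block all 30 gene tests kept their direction and side of the threshold, with 7, 8 and 9 genes called. Of all genes 12.7%, 31.3% and 26.6% were higher with it and 15.1%, 26.9% and 30.6% lower. DESeq2 size factors kept 30 of 30 and the DESeq2 test 29 of 30. Reverse-strand counts raised the TPM of Slc32a1 by 12.2% to 19.6% and lowered that of the other genes. Depth limits Chat most, with 36 to 57 counts.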

Other observations

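Other transmitter systems near the block were low and differed between the groups. Hdc, the enzyme that makes histamine in the tuberomammillary neurons of the hypothalamus and in mast cells, had 6.39 CPM in CTR, 3.47 in CX3 and 23.4 in DAT. Its log2 change was -0.89 in CX3 against CTR, 1.87 in DAT against CTR and -2.76 in CX3 against DAT (adjusted p = 4.74e-05, 9.27e-10 and 4.40e-11). Slc6a2, Pnmt and Dbh, genes of noradrenaline and adrenaline neurons, had 0 to 4 counts in every library and were not tested.

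Neuropeptide genes of the hypothalamus fell into separate patterns. Pmch, which encodes melanin-concentrating hormone, had 0.554 CPM in CTR, 9.92 in CX3 and 6.19 in DAT, and Hcrt, which encodes the orexins, 0.290, 9.29 and 1.57. Avp, vasopressin, had 0.411, 0.553 and 6.55 CPM, and Oxt, oxytocin, which was singled out after its values were seen, 0.219, 0.145 and 3.87. Trh, thyrotropin-releasing hormone, had 1.90, 3.48 and 4.42 CPM. Of the 6 genes of this list 3 rose in CX3 and 6 in DAT against CTR, with sums of 4.395 to 5.001 CPM in CTR, 24.3 to 25.1 in CX3 and 22.4 to 27.8 in DAT.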
